A study of Mus musculus with 10 samples.

Results

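The MHC class I presentation pathway and the immunoproteasome are described here through 10 genes in left ventricular RNA of mice labelled TAC, given osimertinib or placebo. The genes were listed by name for their place in the pathway, with earlier results of these data known, and were matched by symbol among the 45706 genes of the table. They are the class I heavy chains H2-K1 and H2-D1, their light chain B2m, the peptide transporter subunits Tap1 and Tap2, the loading chaperone Tapbp, the induced proteasome subunits Psmb8, Psmb9 and Psmb10, and the regulator Nlrc5. All 10 were among the 12350 genes tested, which had at least 1 CPM (reads scaled to a library total of 1000000) in at least 5 of the 10 libraries.

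The samples comprised 5 labelled TAC with osimertinib and 5 labelled TAC with placebo, whose treatment label reads vehicle. Osimertinib is a kinase inhibitor directed at the epidermal growth factor receptor and given in lung cancer. In heart studies TAC usually stands for transverse aortic constriction, a surgical narrowing of the aorta. Both groups carry this label, and no ventricle without TAC was analysed here. The labels give no strain, genotype, sex, age, dose or length of treatment, and the design text names cardiac toxicity of osimertinib as the question. They do not say that the samples came from separate animals, so p-values measure the spread between these samples, which may be technical.

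Nucleated cells display peptides of their own proteins on MHC class I molecules, where CD8 T cells read them. The proteasome cuts proteins into peptides, the transporter made of Tap1 and Tap2 carries them into the endoplasmic reticulum, and Tapbp (tapasin) holds the empty class I molecule there until a peptide binds. Under interferon gamma, cells make Psmb8, Psmb9 and Psmb10, which take the places of the constitutive catalytic subunits Psmb5, Psmb6 and Psmb7. Nlrc5 is a transactivator of class I genes that works through promoter-bound factors, among them the RFX complex, as its relative Ciita does at class II genes.

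Of the 10 genes, 8 matched a promoter window in RefSeq (GRCm38.p6), taken here as the 250 bases before the gene start. Tap2 and Nlrc5 were not among them. The windows of the class I chains are shown because they carry the boxes through which Nlrc5 is known to act. Each is written 5′ to 3′ on the strand of the gene, H2-K1 from chr17:34000348-34000597 on the minus strand, H2-D1 from chr17:35262844-35263093 on the plus strand and B2m from chr2:122147437-122147686 on the plus strand. Capitals mark letters that matched a searched motif.
H2-K1: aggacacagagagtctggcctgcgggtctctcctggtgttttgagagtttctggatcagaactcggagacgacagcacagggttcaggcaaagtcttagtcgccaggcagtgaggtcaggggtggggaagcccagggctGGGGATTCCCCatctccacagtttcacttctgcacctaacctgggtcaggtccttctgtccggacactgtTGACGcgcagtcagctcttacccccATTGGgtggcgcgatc
H2-D1: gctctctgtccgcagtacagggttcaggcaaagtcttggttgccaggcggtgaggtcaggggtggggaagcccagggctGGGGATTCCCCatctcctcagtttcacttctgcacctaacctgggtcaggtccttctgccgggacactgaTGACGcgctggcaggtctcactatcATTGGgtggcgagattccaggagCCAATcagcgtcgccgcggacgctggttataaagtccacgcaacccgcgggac
B2m: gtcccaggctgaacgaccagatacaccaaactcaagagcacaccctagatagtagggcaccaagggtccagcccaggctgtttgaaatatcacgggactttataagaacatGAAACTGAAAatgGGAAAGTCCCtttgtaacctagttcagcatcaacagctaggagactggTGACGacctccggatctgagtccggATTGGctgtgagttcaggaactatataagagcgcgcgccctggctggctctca

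The searches covered both strands. CCAAT, which is ATTGG on the other strand, was present in 6 of the 8 windows (H2-K1, H2-D1, B2m, Tap1, Tapbp and Psmb9) and in 33.8% of all 32851 promoter windows of this length. TGACG, the core of the element bound by the CREB and ATF factors, was in 5 of the 8 (H2-K1, H2-D1, B2m, Tap1 and Psmb9) and in 17.8% of all windows. The kappaB consensus was in the 3 class I chain windows and in 7.25% of all, and its matches overlapped each other in H2-K1 and in H2-D1. GAAA repeated with 2 bases between, a strict form of the interferon response element, was found in B2m alone among the 8 and in 2.98% of all. Looser forms of this element were not searched for, so the other windows may still hold it. TTCNNNGAA, a gamma-activated site, was found in Psmb8 alone and in 7.02% of all. In H2-K1, H2-D1 and B2m the letters TGACG and ATTGG lay at the same spacing, with starts 25 bases apart, and TGACG began 41, 101 and 78 bases before the gene start. This spacing, searched for after the sequences were seen, was present in 0.0913% of all windows (30 windows of 26 genes), among them that of the class I-like gene H2-M3. A match describes letters and is not a binding site.

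Tap1 and Psmb9 lie head to head on opposite strands, and the 225 bases between their RefSeq starts (chr17:34187331-34187555, written on the plus strand, that of Tap1) are shown because one stretch serves both genes. Psmb8, which lies next to Tap1, has its own window (chr17:34197945-34198194, plus strand).
Tap1 and Psmb9: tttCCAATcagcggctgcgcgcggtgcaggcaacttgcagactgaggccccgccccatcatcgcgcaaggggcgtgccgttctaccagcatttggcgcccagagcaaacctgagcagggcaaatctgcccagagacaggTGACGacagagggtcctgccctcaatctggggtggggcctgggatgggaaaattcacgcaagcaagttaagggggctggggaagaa
Psmb8: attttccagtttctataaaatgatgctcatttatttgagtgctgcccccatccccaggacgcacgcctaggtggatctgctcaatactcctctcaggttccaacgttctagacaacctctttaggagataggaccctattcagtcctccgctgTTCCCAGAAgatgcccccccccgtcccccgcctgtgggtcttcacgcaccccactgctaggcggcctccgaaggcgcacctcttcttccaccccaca

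In GENCODE M21 coordinates (GRCm38), 7 of the 10 genes lie within the histocompatibility region of chromosome 17: Tapbp (33915899 to 33929292, plus strand), H2-K1 (33996017 to 34000347, minus strand), Psmb9 (34181987 to 34187764, minus strand), Tap1 (34187553 to 34197225, plus strand), Psmb8 (34197721 to 34201454, plus strand), Tap2 (34203527 to 34216321, plus strand) and H2-D1 (35262730 to 35267499, plus strand). B2m lies on chromosome 2 (122147686 to 122153083, plus strand). Nlrc5 (94434356 to 94527272, plus strand) and Psmb10 (105935735 to 105938444, minus strand) lie on chromosome 8. Of the 31-base words in their transcripts, 22.8% of H2-K1 and 26.7% of H2-D1 occur in another gene too, most often in each other, so how reads were divided between the class I chains is uncertain. The share was at most 4.62% for the other 8 genes and 0 for B2m, Psmb9, Psmb10 and Nlrc5.

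Estimated depth was between 15863265 and 21309296 reads per library. The mitochondrially encoded genes took 31.7% to 45.2% of the CPM in osimertinib libraries and 38.1% to 48.0% in placebo libraries 1 to 4, against 63.4% in placebo library 5, which stands apart. Because the CPM of every library has the same total, a large mitochondrial share lowers every other value. Values are therefore given both as deposited and after rescaling by the median ratio of each library to the average library, with a factor of 0.4545 for placebo library 5 and 0.9257 to 1.344 for the other 9. All fold changes are differences of log2(CPM + 0.5), so those of low genes come out too small. The median difference of all tested genes (osimertinib minus placebo) was 0.27 in deposited CPM and 0.01 in rescaled CPM. The labelled tissue was checked against 8 cardiomyocyte markers, which were abundant in every library, with a rescaled sum of 29499 to 52349 CPM in osimertinib libraries and 14914 to 36706 CPM in placebo libraries.

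Within each group B2m was the most abundant of the 10 per length and Nlrc5 the least. Per kilobase of exon, rescaled means were 510 CPM for B2m, 143 for H2-D1 and 98.0 for H2-K1 in osimertinib libraries, and 662, 176 and 120 CPM per kilobase in placebo libraries. Psmb10 followed with 28.4 CPM per kilobase under osimertinib and 29.2 under placebo, Tapbp with 18.3 and 19.3, Tap2 with 11.2 and 13.6, and Psmb8 with 8.67 and 11.9. Tap1 had 4.42 CPM per kilobase under osimertinib and 6.10 under placebo, Psmb9 3.79 and 5.66, and Nlrc5 0.808 and 1.54. Precision differs accordingly: B2m rested on 4050 to 16627 reads per library, Psmb9 on 219 to 519 and Nlrc5 on 71 to 402.

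In deposited CPM no gene of the 10 differed between osimertinib and placebo (limma, Benjamini-Hochberg adjusted p over all tested genes, called at 0.05). In rescaled CPM, Nlrc5, Psmb9 and Psmb8 were lower under osimertinib and the other 7 were not called. The 0 calls in deposited CPM stand beside 6.74% of all tested genes called in either direction, 6.62% higher and 0.13% lower, and 1 of the 10 (Nlrc5) had an unadjusted p under 0.05. The 3 lower calls in rescaled CPM stand beside 20.8% of all tested genes called in either direction and 10.5% called lower, and 5 of the 10 had an unadjusted p under 0.05. The share of all tested genes with an unadjusted p under 0.05 is not given here, so these unadjusted counts have no background beside them. The fold change was below 0 for 8 of the 10 in deposited CPM, against 23.7% of all tested genes, and for 10 of the 10 in rescaled CPM, against 48.9%. The median log2 fold change of the 10 was -0.04 deposited, where that of all genes was 0.27, and -0.33 rescaled, where that of all genes was 0.01. The deposited median of the 10 rested on placebo library 5: without it, it was -0.31, and that of all genes 0.05. In bulk tissue, fewer cells of a type and less RNA per cell cannot be told apart.

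**Figure D1:**
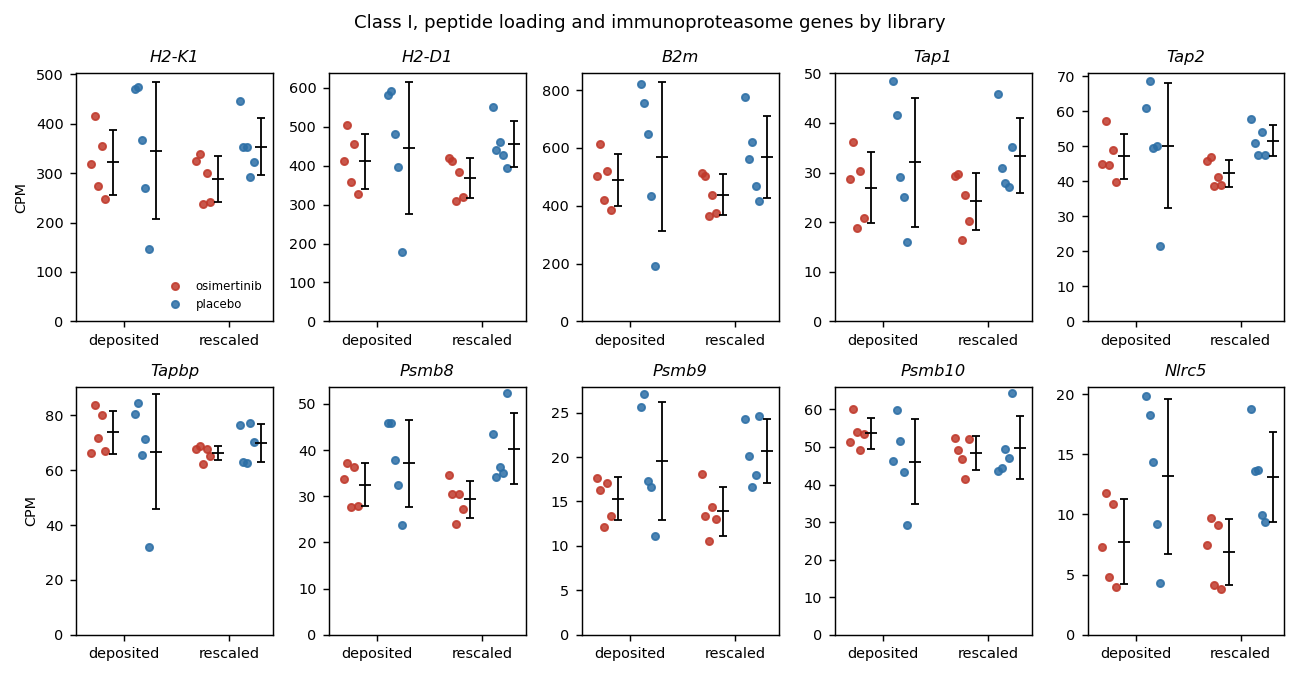
CPM of the 10 genes in each library, as deposited and rescaled, with osimertinib (red) left of placebo (blue); bars are the mean ± SD of 5 libraries. The lowest deposited placebo point is placebo library 5 in all 10 panels, and after rescaling only Tap2 has all osimertinib points below all placebo points.

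Nlrc5, the transactivator, had the largest fold change of the 10 in both scalings. Its rescaled CPM was 7.45, 9.68, 4.17, 9.17 and 3.84 in osimertinib libraries 1 to 5, and 18.8, 13.6, 13.7, 9.96 and 9.40 in placebo libraries 1 to 5. All osimertinib libraries but library 2 lay below every placebo library, libraries 3 and 5 were lowest, and the groups overlapped at the edge. The means were 6.86 ± 2.74 CPM under osimertinib and 13.1 ± 3.76 CPM under placebo (SD, n = 5 each), with a log2 fold change of -0.93 (SE 0.27, limma adjusted p = 0.0326). The difference was smaller in deposited CPM, where the means were 7.75 ± 3.53 under osimertinib and 13.2 ± 6.46 under placebo (log2 fold change -0.67, SE 0.33, limma adjusted p = 0.218). Nlrc5 was called without placebo library 5 in both scalings (log2 fold change -1.01, limma adjusted p = 0.0491 deposited, and -1.04, adjusted p = 0.033 rescaled). The rescaled call was lost without osimertinib library 3 (limma adjusted p = 0.0877), osimertinib library 5 (0.0819), placebo library 1 (0.0778) or placebo library 2 (0.0736).

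The class I chains were not called in either scaling. H2-K1 had 323.8, 339.2, 237.3, 299.1 and 240.8 rescaled CPM in osimertinib libraries 1 to 5, and 445.5, 352.3, 351.7, 291.8 and 322.7 in placebo libraries 1 to 5. H2-D1 had 420.2, 412.6, 310.0, 383.0 and 319.3 rescaled CPM under osimertinib, and 550.8, 440.7, 460.9, 427.1 and 392.9 under placebo. In both chains osimertinib libraries 3 and 5 were lowest and placebo library 1 highest, and the groups overlapped. The rescaled log2 fold change was -0.29 for H2-K1 (SE 0.16, limma adjusted p = 0.185) and -0.30 for H2-D1 (SE 0.15, adjusted p = 0.146), with 5 of 5 osimertinib libraries below the placebo mean for each. In deposited CPM it was -0.01 (adjusted p = 0.992) and -0.02 (adjusted p = 0.984).

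B2m, which every class I heavy chain needs to reach the cell surface, had 513.7, 502.9, 364.8, 438.5 and 375.2 rescaled CPM in osimertinib libraries 1 to 5, and 777.3, 561.1, 620.1, 468.2 and 418.2 in placebo libraries 1 to 5. Placebo libraries 4 and 5 fell within the range of the osimertinib libraries. The means were 439 ± 69.4 CPM under osimertinib and 569 ± 140 CPM under placebo (SD, n = 5 each), a log2 fold change of -0.35 (SE 0.19, limma adjusted p = 0.183). The deposited means were 489 ± 89.9 and 569 ± 258 CPM for osimertinib and placebo, and the log2 fold change was -0.07 (adjusted p = 0.933). The proportions between the chains were close in both groups. B2m over H2-K1 was 1.466 to 1.586 in osimertinib libraries and 1.296 to 1.763 in placebo libraries, and H2-D1 over H2-K1 was 1.22 to 1.33 and 1.22 to 1.46.

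Of the loading genes, Tap2 was the only one of the 10 whose groups did not overlap in rescaled CPM, with osimertinib below placebo, which held for 6.82% of all tested genes (5.72% with osimertinib above placebo). Tap2 had 45.7, 46.8, 38.6, 41.3 and 38.8 rescaled CPM in osimertinib libraries 1 to 5, and 57.7, 50.9, 47.5, 54.1 and 47.5 in placebo libraries 1 to 5. The log2 fold change was -0.29 (SE 0.10) and did not pass the test (limma adjusted p = 0.0622). In deposited CPM the Tap2 groups overlapped, at 39.8 to 57.1 CPM under osimertinib and 21.6 to 68.5 under placebo, with a log2 fold change of -0.00 (adjusted p = 0.997). No gene of the 10 was free of overlap in deposited CPM, where 0.081% of all tested genes had osimertinib below placebo and 5.33% above it.

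Tap1 had 29.3, 29.6, 16.3, 25.5 and 20.3 rescaled CPM in osimertinib libraries 1 to 5, and 45.9, 30.9, 27.98, 27.2 and 35.2 in placebo libraries 1 to 5. Osimertinib libraries 1 and 2 lay within the placebo range and the other 3 below it (log2 fold change -0.47, SE 0.19, limma adjusted p = 0.0881). Tapbp differed least among the loading genes, with 62.2 to 68.7 rescaled CPM under osimertinib and 62.7 to 77.1 under placebo (log2 fold change -0.07, SE 0.10, limma adjusted p = 0.629). The deposited log2 fold changes were -0.19 for Tap1 (adjusted p = 0.794) and 0.21 for Tapbp (adjusted p = 0.76). Tapbp changed sign between the scalings and was called in neither.

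Among the induced proteasome subunits, Psmb9 had 18.1, 13.3, 10.5, 14.4 and 13.1 rescaled CPM in osimertinib libraries 1 to 5, and 24.3, 20.2, 16.6, 18.0 and 24.6 in placebo libraries 1 to 5. Osimertinib library 1 reached the level of the lowest placebo libraries and the other 4 lay below all of them. The means were 13.9 ± 2.75 CPM under osimertinib and 20.7 ± 3.61 CPM under placebo (SD, n = 5 each), a log2 fold change of -0.57 (SE 0.15, limma adjusted p = 0.029). In deposited CPM it was -0.29 (SE 0.31, adjusted p = 0.642). The rescaled call was lost without osimertinib library 2, 3 or 5 (limma adjusted p = 0.0505, 0.0801 and 0.0709) and without placebo library 1, 2 or 5 (0.0709, 0.061 and 0.0501).

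Psmb8 had 34.5, 30.5, 23.9, 30.6 and 27.2 rescaled CPM in osimertinib libraries 1 to 5, and 43.4, 34.1, 36.3, 35.1 and 52.3 in placebo libraries 1 to 5. As with Psmb9, 4 of 5 osimertinib libraries lay below all placebo libraries, and placebo library 5 was the highest. The means were 29.3 ± 3.98 CPM under osimertinib and 40.3 ± 7.69 CPM under placebo (SD, n = 5 each), a log2 fold change of -0.44 (SE 0.14, limma adjusted p = 0.0442). In deposited CPM it was -0.16 (SE 0.31, adjusted p = 0.816). The rescaled call was lost without osimertinib library 2, 3, 4 or 5 (limma adjusted p = 0.0643, 0.115, 0.0544 and 0.101) and without placebo library 1, 2 or 5 (0.0986, 0.0609 and 0.073).

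Psmb10, the remaining induced subunit, had 52.4, 49.2, 46.7, 41.5 and 52.2 rescaled CPM in osimertinib libraries 1 to 5, and 43.7, 44.5, 49.5, 46.9 and 64.3 in placebo libraries 1 to 5. The groups overlapped widely, and placebo library 5 lay above the other 9 (log2 fold change -0.03, SE 0.12, limma adjusted p = 0.878). In deposited CPM its log2 fold change was 0.25 (adjusted p = 0.698). The rescaled value without placebo library 5 was 0.07, so its sign depended on the scaling and on this library.

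**Figure D2:**
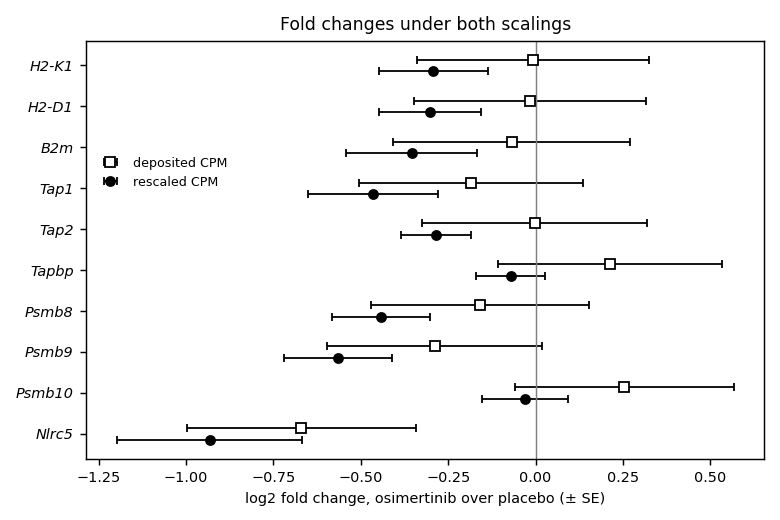
Log2 fold change, osimertinib over placebo, of each gene with its standard error, in deposited (open squares) and rescaled CPM (filled circles). The rescaled value lies lower for every gene, at -0.93 for Nlrc5 and -0.03 for Psmb10.

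Each induced catalytic subunit was also set against the constitutive subunit it replaces, as a ratio within a library that does not depend on the scaling between libraries. Psmb8 over Psmb5 was 0.492, 0.428, 0.258, 0.492 and 0.259 in osimertinib libraries 1 to 5, and 1.24, 0.786, 0.418, 0.5 and 1.19 in placebo libraries 1 to 5. Psmb9 over Psmb6 was 0.218, 0.168, 0.106, 0.206 and 0.121 under osimertinib, and 0.512, 0.348, 0.178, 0.22 and 0.405 under placebo. Psmb10 over Psmb7 was 1.07, 0.888, 0.6, 0.844 and 0.546 under osimertinib, and 1.74, 1.51, 0.914, 0.984 and 2.4 under placebo. In all 3 ratios placebo libraries 3 and 4 lay close to the osimertinib libraries and placebo libraries 1, 2 and 5 far above them, so the groups overlapped while 5 of 5 osimertinib libraries lay below the placebo mean.

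The mean ratio of Psmb8 to Psmb5 was 0.386 ± 0.119 under osimertinib and 0.828 ± 0.382 under placebo (SD, n = 5 each), that of Psmb9 to Psmb6 0.164 ± 0.0494 and 0.332 ± 0.136, and that of Psmb10 to Psmb7 0.791 ± 0.217 and 1.51 ± 0.606. On the log2 scale the differences were -1.03, -0.97 and -0.88. The exact two-sided permutation test over the 252 assignments of libraries, whose smallest p is 0.00794, gave p = 0.0556, p = 0.0317 and p = 0.0397, and none passed after adjustment over the 3 ratios (each adjusted p = 0.0556). Without placebo library 5 the differences were -0.86, -0.88 and -0.69 (exact permutation, adjusted p = 0.111, 0.107 and 0.107). All 3 passed without placebo library 3 (adjusted p = 0.0119, 0.0119 and 0.0238, exact permutation) or placebo library 4 (0.0397 each).

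The denominators had positive fold changes. Psmb7 was higher under osimertinib in both scalings, with 65.4 ± 20.6 rescaled CPM against 36.7 ± 13.3 under placebo (SD, n = 5 each; log2 fold change 0.84, limma adjusted p = 0.0361; deposited 1.12, adjusted p = 0.0284). Psmb5 had a rescaled log2 fold change of 0.57 (adjusted p = 0.0975) and Psmb6 one of 0.39 (adjusted p = 0.144), with 5 of 5 osimertinib libraries above the placebo mean for each, and neither passed in deposited CPM. Psmb7 was not called without placebo library 5 (limma adjusted p = 0.0532 deposited and 0.066 rescaled). The summed cardiomyocyte markers, given above, overlapped between the groups and averaged 39051 rescaled CPM under osimertinib and 25311 under placebo, and their part in these ratios was not tested.

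**Figure D3:**
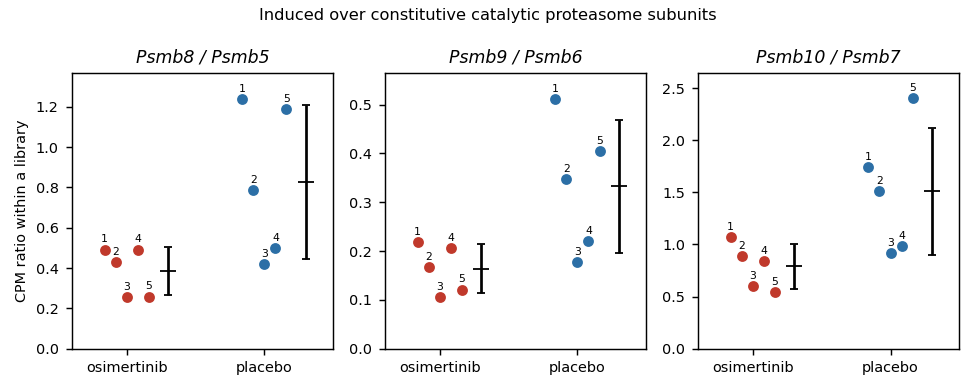
Ratio of the CPM of each induced catalytic subunit to that of its constitutive counterpart, with the number of each library beside its point; bars are the mean ± SD of 5 libraries. Placebo libraries 3 and 4 sit beside the osimertinib libraries in all 3 panels.

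Across the libraries most of the 10 genes varied together. After centring each gene on its mean (log2 of rescaled CPM), the average of the 10 was 0.02, -0.01, -0.46, -0.12 and -0.36 in osimertinib libraries 1 to 5, and 0.45, 0.13, 0.13, 0.05 and 0.18 in placebo libraries 1 to 5. Osimertinib libraries 3 and 5 were thus low together and placebo library 1 high, while osimertinib libraries 1 and 2 were near the middle. Over the 10 libraries, Pearson's r between pairs of these genes ranged from -0.33 (Psmb10 with B2m) to 0.96 (H2-K1 with H2-D1), with a median of 0.69 over the 45 pairs and 39 above 0. Without Tapbp and Psmb10 the median was 0.85, and within groups it was 0.50 over all pairs. Nlrc5 correlated with H2-D1 at 0.95 and with H2-K1 at 0.94. These values are descriptions: the points share libraries, groups and scaling, and the class I chains share sequence.

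**Figure D4:**
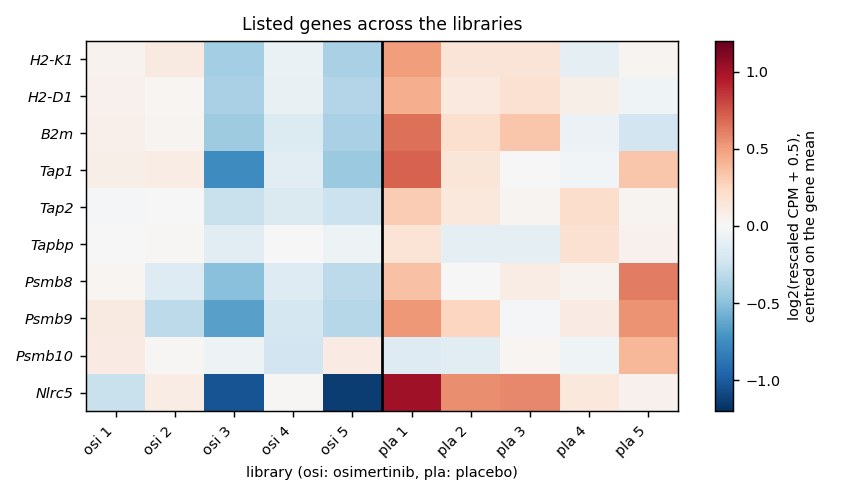
Log2 of rescaled CPM + 0.5 of each gene in each library, centred on the mean of the gene, osimertinib left of placebo. Osimertinib libraries 3 and 5 are low in most rows, placebo library 1 is high, and Tapbp and Psmb10 show little of this pattern.

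The genes whose profile over the 10 libraries was most like the average of the 10, among 12340 others, were Gbp4 (r = 0.97), Piwil2 (0.97), Kdm3a (0.97), Cybc1 (0.96), Sltm (0.96), Numb (0.95), Pank2 (0.95), Trim39 (0.95), Nos3 (0.95) and Xaf1 (0.95). Gbp4 encodes an interferon-inducible guanylate-binding protein. It averaged 30.2 rescaled CPM under osimertinib (18.1 to 44.4) and 55.0 under placebo (41.1 to 84.8) (log2 fold change -0.88). Nos3, the nitric oxide synthase of endothelium, had 70.5 to 100 rescaled CPM under osimertinib and 111 to 154 under placebo (log2 fold change -0.61). The average profile is itself lower in osimertinib libraries, so the choice of these genes fixes the direction of their differences, and the fold changes are given as descriptions.

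The other genes of the pathway were read from lists. Of 17 other class I and class I-like chains, 12 were tested. Of these, 1 was called higher in rescaled CPM, against 10.4% of all tested genes, and 0 in deposited CPM, against 6.62%. The rescaled CPM of Mr1, which presents vitamin metabolites to MAIT cells, was higher under osimertinib (7.59 ± 1.14 against 5.07 ± 1.38, SD, n = 5 each; log2 fold change 0.56, limma adjusted p = 0.0331), and the other 11 were not called. H2-T23, the mouse chain that shows leader peptides of other class I molecules to natural killer cells, had 48.2 ± 8.97 rescaled CPM under osimertinib and 60.7 ± 7.24 under placebo (log2 fold change -0.34, adjusted p = 0.0981). The median log2 fold change of the 12 was 0.07 deposited, with 0 called, and -0.21 rescaled. For Mr1 the deposited log2 fold change was 0.82 (adjusted p = 0.0721), and without placebo library 5 the gene was called there (0.74, adjusted p = 0.0352) and the deposited median of the 12 was -0.17.

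Of 14 genes of peptide trimming and folding in the endoplasmic reticulum, 1 was called in deposited CPM and 2 in rescaled CPM. Of all tested genes, 6.74% were called in deposited CPM and 20.8% in rescaled CPM, in either direction. Lnpep, a membrane aminopeptidase known to trim peptides for cross-presentation, was higher under osimertinib in both scalings (5.92 ± 1.22 rescaled CPM against 3.34 ± 1.23; log2 fold change 0.78, limma adjusted p = 0.032; deposited 1.02, adjusted p = 0.0284). Ganab, the glucosidase subunit that trims glycans of newly made glycoproteins, was lower in rescaled CPM with no overlap (47.2 to 57.6 under osimertinib and 61.0 to 67.6 under placebo; log2 fold change -0.30, adjusted p = 0.0415), against -0.02 in deposited CPM (adjusted p = 0.983). Such a lack of overlap in rescaled CPM, with osimertinib below placebo, held for 6.82% of all tested genes. The rescaled call of Lnpep was lost without placebo library 5 (limma adjusted p = 0.0513). Erap1, which trims peptides to class I length, had a rescaled log2 fold change of 0.05 (adjusted p = 0.866). The median of the 14 was 0.32 deposited and 0.05 rescaled, and without placebo library 5 it was 0.02 and -0.01.

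Of 23 genes of the proteasome core, its activators and its assembly, 0 had a fold change below 0 in deposited CPM, against 23.7% of all tested genes. In rescaled CPM 3 did, against 48.9%. Of these core, activator and assembly genes, all tested, 6 were higher under osimertinib in rescaled CPM (Psme3, Psmb2, Psmb7, Psma2, Psma5 and Psmb3) and none lower, against 10.4% of all tested genes called higher, and Psmb7 alone was called in deposited CPM. Their median log2 fold change was 0.75 deposited and 0.48 rescaled. Psme3, an activator subunit mainly of the nucleus, did not overlap between groups, with 22.4 to 32.9 rescaled CPM under osimertinib and 18.0 to 22.1 under placebo (log2 fold change 0.44, limma adjusted p = 0.0309). In rescaled CPM 5.72% of all tested genes had osimertinib above placebo without overlap. Psme1 and Psme2, the interferon-inducible activator subunits, were not called, with rescaled log2 fold changes of 0.18 (adjusted p = 0.355) and -0.04 (adjusted p = 0.826). Without placebo library 5, Psme3 was the 1 gene of the 23 called in rescaled CPM and 0 were called in deposited CPM, with medians of 0.46 and 0.49.

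Of 16 transcriptional regulators, 3 were lower under osimertinib in rescaled CPM and 0 were called in deposited CPM, against 10.5% of all tested genes called lower in rescaled CPM. The median was -0.24 rescaled and 0.04 deposited, and the deposited median was -0.28 without placebo library 5. All 3 carry interferon signals and had groups that did not overlap in rescaled CPM, where 6.82% of all tested genes had osimertinib below placebo. Stat2 had 29.7, 31.8, 19.7, 32.8 and 17.02 rescaled CPM in osimertinib libraries 1 to 5, and 67.0, 51.2, 51.3, 36.8 and 56.3 in placebo libraries 1 to 5 (log2 fold change -1.01, SE 0.21, limma adjusted p = 0.0141). Irf9, its partner in the complex formed under type I interferon, averaged 23.2 ± 4.12 rescaled CPM against 35.0 ± 4.36 (log2 fold change -0.59, adjusted p = 0.0191). Irf1, which binds class I and immunoproteasome promoters under interferon gamma, averaged 32.5 ± 3.13 against 46.2 ± 6.17 (log2 fold change -0.50, adjusted p = 0.0182). In deposited CPM the log2 fold changes were -0.73 for Stat2 (adjusted p = 0.169), -0.31 for Irf9 (0.629) and -0.21 for Irf1 (0.754).

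The RFX subunits that Nlrc5 works with were called in neither scaling. In rescaled CPM Rfx5 had a log2 fold change of -0.03 (limma adjusted p = 0.919), Rfxap one of 0.06 (0.685) and Rfxank one of -0.23 (0.227), with groups that overlapped. Among 10 interferon receptor and signalling genes, Tyk2 was lower in rescaled CPM (log2 fold change -0.65, limma adjusted p = 0.0177). This kinase of the type I interferon receptor had groups that did not overlap (12.9 to 20.6 against 22.02 to 32.5). In deposited CPM 0 of the 10 were called. Of all tested genes, 10.5% were called lower in rescaled CPM and 6.82% had osimertinib below placebo without overlap. Without placebo library 5 the rescaled lower calls numbered 6 of the 16 regulators (Irf2, Irf8 and Nfya in addition) and 2 of the 10 signalling genes (Ifngr1 in addition). Stat2 was then also called in deposited CPM (-0.95, limma adjusted p = 0.0379). Rescaled calls over all genes ranged from 517 to 2789 on leaving out 1 library. The share of all genes called lower without placebo library 5 is not given here, so these counts have no background beside them.

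Class II genes, whose products present peptides to CD4 T cells, were read for comparison, and 7 of 10 were tested. In rescaled CPM 5 were called higher (Cd74, H2-Aa, H2-Eb1, H2-Ab1 and H2-DMa), against 10.4% of all tested genes, and in deposited CPM 3 (Cd74, H2-Aa and H2-Eb1), against 6.62%. Cd74, the invariant chain, had 156.2, 169.8, 151.0, 192.8 and 187.9 rescaled CPM in osimertinib libraries 1 to 5, and 88.5, 94.0, 115.2, 89.7 and 90.5 in placebo libraries 1 to 5, with no overlap (log2 fold change 0.84, SE 0.12, limma adjusted p = 0.00867; deposited 1.13, adjusted p = 0.0245). Osimertinib lay above placebo without overlap in rescaled CPM for 5.72% of all tested genes. H2-Aa, an alpha chain, averaged 49.8 ± 6.88 against 29.4 ± 1.75 rescaled CPM (log2 fold change 0.74, limma adjusted p = 0.00867). Within a library the ratio of Cd74 to B2m, free of scaling, was 0.304, 0.338, 0.414, 0.44 and 0.501 in osimertinib libraries 1 to 5 and 0.114, 0.167, 0.186, 0.192 and 0.216 in placebo libraries 1 to 5. All osimertinib ratios lay above all placebo ratios. Ciita, the class II transactivator, had 1.12 ± 0.306 rescaled CPM under osimertinib and 1.11 ± 0.467 under placebo (log2 fold change 0.03, adjusted p = 0.933). The same 5 class II genes were called in both scalings without placebo library 5.

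**Figure D5:**
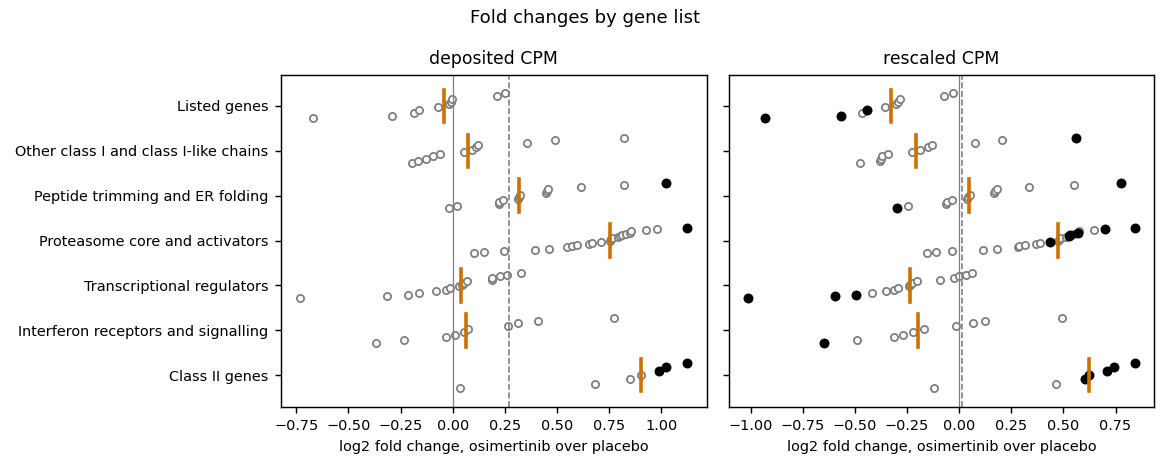
Log2 fold change, osimertinib over placebo, of each tested gene by list, in deposited (left) and rescaled CPM (right); filled points were called by limma, orange bars are list medians and the dashed line is the median of all genes. In rescaled CPM the 10 listed genes lie below 0 with a median of -0.33, and the class II genes have a median of 0.62.

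Markers of the cells the ventricle could hold were read beside these results. In rescaled CPM, 10.5% of all tested genes were called lower and 10.4% higher. In deposited CPM, 0.13% were called lower and 6.62% higher. Of 8 endothelial markers, 2 were lower under osimertinib in rescaled CPM (Egfl7, log2 fold change -0.76, limma adjusted p = 0.0316, and Tie1, -0.38, adjusted p = 0.0454), and the sum was 1507 to 1841 CPM in osimertinib libraries and 1662 to 2428 in placebo libraries. Of 10 tested macrophage and monocyte markers, 2 were higher (Lyz2, 0.54, adjusted p = 0.0389, and Adgre1, 0.60, adjusted p = 0.0437), and the sum was 244 to 323 against 172 to 253 CPM. No endothelial or macrophage marker was called in deposited CPM. Without placebo library 5 Tie1 was not called (adjusted p = 0.0665), and Lyz2 and Adgre1 were called in both scalings. Of 5 dendritic cell markers 2 were tested, and 1 of them was lower in rescaled CPM. This was Zbtb46, a factor of dendritic cells that endothelium also expresses (19.3 to 24.8 against 28.5 to 43.7 CPM, log2 fold change -0.75, limma adjusted p = 0.0106). Itgax, the other tested marker, was called in neither scaling (log2 fold change 0.16 deposited and 0.04 rescaled). Of 8 cardiomyocyte markers 1 was higher in rescaled CPM (Actc1, 1.47, adjusted p = 0.03) and 4 in deposited CPM, 2 of them (Actc1 and Tnnt2) also without placebo library 5, and Actc1 was not called without placebo library 5 in rescaled CPM (adjusted p = 0.0502).

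Lymphocytes, which read class I molecules, gave little signal. None of 12 T and natural killer cell markers reached the level for testing. Their rescaled sum was 2.00 to 2.74 CPM in osimertinib libraries and 1.44 to 2.53 in placebo libraries, and no single marker exceeded 0.929 CPM in any library. B cell markers summed to 1.75 to 5.30 against 1.55 to 4.46 CPM, neutrophil markers to 2.48 to 7.81 against 1.24 to 10.2 CPM, and Ptprc, carried by all leukocytes, to 5.57 to 9.63 against 2.48 to 13.3 CPM. The part of any of these cell types in the differences of the class I genes was not tested. Fibroblast and smooth muscle or pericyte markers had no call in either scaling, with rescaled log2 fold changes of 0.43 for Dcn (adjusted p = 0.191), 0.35 for Col1a1 (0.352), 0.40 for Rgs5 (0.296) and 0.12 for Acta2 (0.714). Nor did Ptprc (-0.05, adjusted p = 0.921) or the neutrophil markers Csf3r (-0.32, 0.604) and S100a9 (-0.05, 0.945). Without placebo library 5, Csf3r was called lower in rescaled CPM (-0.77, adjusted p = 0.0344) and Ptprc had -0.38 (0.204). Of 3 mesothelial markers 1 was tested, Wt1, which was lower in rescaled CPM (log2 fold change -0.63, adjusted p = 0.0486). Upk3b, untested, had up to 18.8 rescaled CPM under osimertinib and up to 1.501 under placebo, Msln up to 8.07 and 3.56, and the sum of the 3 averaged 14.6 and 12.6 CPM. Of 5 tested atrial markers, Nppa (log2 fold change 1.19, adjusted p = 0.0283) and Dkk3 (1.59, adjusted p = 0.048) were higher in deposited CPM and none in rescaled CPM, and neither was called without placebo library 5 (adjusted p = 0.0999 and 0.205). Bmp10 was at 0 in every library. Myl7 had 266.9, 309.5, 0.288, 1149 and 0.324 rescaled CPM in osimertinib libraries 1 to 5. In placebo libraries 1 to 5 it had 255.9, 55.5, 0.862, 0 and 267.3. Myl4 and Sln were also lowest in osimertinib libraries 3 and 5 and placebo libraries 3 and 4. Osimertinib libraries 3 and 5 were low in most of the 10 genes, and placebo libraries 3 and 4 lay close to osimertinib in the subunit ratios. The part of atrial transcripts in these patterns was not tested. The fat marker Cidec was higher in deposited CPM alone (log2 fold change 1.21, adjusted p = 0.039). These atrial and fat calls stand beside 6.62% of all tested genes called higher in deposited CPM.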

How the data were processed

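Left ventricular RNA from 5 osimertinib and 5 placebo samples was column-purified and selected with oligo(dT) beads, per the labels' protocols, for strand-specific libraries, per the design text. The deposited table holds CPM, which the authors scaled to the total of each library. Per the design text, STAR and RSEM on GRCm38 made the estimates, whereas the submitters' processing notes name cutadapt 1.9, HISAT2 2.0.4, StringTie 1.3.4d, DESeq2 and hg38, a human build. Mouse identifiers fill the table, and 98.8% of them (45143) matched GENCODE M21, which gave coordinates and exon lengths.

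Depth was read from the steps between low values, which are the CPM of 1 read. Under 200 reads, 90.7% to 93.4% of values were whole reads within 0.01 read, too few for a count test as the main result. Libraries were compared in 45 pairs, and all differed by more than sampling noise (chi-square of at least 22.6 per degree of freedom).

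limma 3.58.1 (R 4.3.3) was fitted to log2(CPM + 0.5), with an intensity trend and group as its 1 term, for genes reaching 1 CPM in 5 or more libraries. Tests were two-sided, adjusted by Benjamini-Hochberg over all tested genes and called at 0.05. The same fit was made on CPM rescaled by median ratios. Ratios within a library were tested by exact permutation (scipy 1.17.1). Promoters came from RefSeq (GRCm38.p6). The fitting code was tested on simulated data.

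The 10 genes and all lists were chosen with earlier results of these data known. Named were the 10, Psmb5 to Psmb7, Irf1, the RFX subunits and Ciita whatever their test gave, up to 4 called genes of each list by lowest rescaled p, or its 2 most abundant where none was called, and the 10 genes most like the average of the 10. H2-T23, Erap1, Psme1, Psme2, Itgax, Myl7, Myl4 and Sln were named in addition, after their values were seen, as were further called genes of lists whose calls are counted. The rule also took 2 genes that are not reported here. Leaving out placebo library 5 for the lists was chosen after seeing the data. The other alternatives were leaving out each library, pseudocounts of 0.1 and 2, testing every gene, requiring a mean of 5 CPM, dropping the trend, array weights, a block for the replicate number, quantile and upper-quartile scaling, voom on estimated reads, and CPM without mitochondrial and haemoglobin genes.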

Additional observations from a re-analysis of the deposited data

Results flagged for a closer look

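Psmb10 in rescaled CPM had 64.3 CPM in placebo library 5, against 43.7 to 49.5 CPM in the other 4 placebo libraries. The gap to the nearest of them was 0.718 of the whole range of the group, above the limit for 5 values. Among 58 groups of 5 values examined (the 10 genes, their constitutive counterparts and the ratios), this was the 1 that stood out. By chance about 1 in 20 such groups passes the limit, so 1 among 58 is not more than chance gives. In deposited CPM the same library was the lowest of the placebo group for Psmb10. Its mitochondrial share was the highest of all libraries, and the part of that share in this value was not tested.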

How the results depend on the processing

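The number of genes called in deposited CPM (833) was 0 with no filter (limma, smallest adjusted p = 0.0707, 3269 genes at an unadjusted p under 0.05), where more genes are tested, 2579 with array weights, 1320 with the replicate number as a block, and 301 to 1150 on leaving out 1 library, lowest without osimertinib library 3. The share of these calls that were lower was 1.92%, and it was 18.6% without mitochondrial and haemoglobin genes, 16.3% with array weights and 29.4% without placebo library 5. In rescaled CPM (2574) the number was 1227 with no filter and 517 to 2789 on leaving out 1 library, again lowest without osimertinib library 3. Of the 10 genes, 0 were called in deposited CPM, 1 with array weights (Nlrc5, adjusted p = 0.0444) and 0 to 1 on leaving out 1 library. In rescaled CPM 3 were called, 0 with no filter and 0 to 3 on leaving out 1 library, with 0 without osimertinib library 3 or 5 or placebo library 1 or 2. The same 3 were called with both other pseudocounts, a mean of at least 5 CPM, array weights, upper-quartile scaling and voom, Psmb9 and Nlrc5 without the trend, and H2-D1 (-0.60, adjusted p = 0.0474), Psmb9 and Nlrc5 after quantile normalization.

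The sign reversed for Tapbp (-0.0477) and Psmb10 (-0.00698) in deposited CPM without mitochondrial and haemoglobin genes and for Psmb10 in rescaled CPM with array weights (0.0278). On leaving out 1 library, the deposited log2 fold change ranged from -0.29 to 0.14 for H2-K1, -0.32 to 0.12 for H2-D1, -0.42 to 0.11 for B2m, -0.28 to 0.13 for Tap2 and -0.0314 to 0.32 for Tapbp, and the rescaled one from -0.0742 to 0.0657 for Psmb10. The 3 log2 ratios ranged from -1.24 to -0.85, -1.17 to -0.79 and -1.04 to -0.69.

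The shared replicate numbers did not pair the samples: same-numbered libraries correlated at 0.428, 0.245, 0.464, -0.339 and -0.162 after removing group means, and replicates 1 and 3 alone correlated best with their own number. With the block, rescaled calls over all genes were 2949 and 4 of the 10 genes were called, Tap1 in addition (adjusted p = 0.0462). The sign-flip test of the ratios within replicate numbers gave an adjusted p of 0.0625 for each. That is the smallest p this test can give with so few replicate numbers, so it could not pass 0.05. The cause of these shifts was not tested. Depth limits Nlrc5 most, with 71 reads in its lowest library.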
